A study of Mus musculus with 2 samples.

Results

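Mir137, Mir138-1, Mir138-2, Mir129-1 and Mir129-2 are the hairpin genes of 3 microRNAs known for roles in spine size and synaptic scaling. They were chosen by symbol after every gene ID of the count tables had been matched to GENCODE annotation M21, and make up 5 of the 2202 microRNA genes measured. Only reads on a gene's own strand entered, and detection meant 10 or more counts in both libraries, which all 5 genes reached. The study sequenced small RNA from left cerebral cortex of male B6CASTF1/J mice (the F1 cross of C57BL/6 and CAST/Ei) at 14 days of age. There was 1 group of 2 replicate libraries, with no treatment or second genotype, so no conditions could be compared. The libraries share a donor label and have separate tissue records. These records mention 3x Males without stating whether tissue was pooled, and separate animals are not stated. Each SD therefore covers a spread between samples that may be technical. Each p-value covers read sampling only and no spread between samples.

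MicroRNAs are cut from a hairpin precursor, and either arm of the hairpin can give a mature form of about the length of a small RNA read. The mature form guides Argonaute to messenger RNAs that pair with its seed, bases 2 to 8. In neurons, miR-137 is known to act on dendrite growth and on the supply of glutamate receptors to synapses. In rat hippocampal neurons, miR-138 limits the size of dendritic spines by repressing the depalmitoylating enzyme APT1. In rat neurons, miR-129-5p takes part in the downscaling of synapses after a rise in activity. Mir137 has a single genomic copy, whereas miR-138 and miR-129 are each encoded by 2 hairpins on different chromosomes.

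The mature sequences are shown because they decide which copy a read can be assigned to. All 5 hairpins were identical in RefSeq (GRCm38.p6) and GENCODE M21, and RefSeq lists 7 mature names for them. In the following lines the seed is in capitals.
miR-137-5p: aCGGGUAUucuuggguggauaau
miR-137-3p: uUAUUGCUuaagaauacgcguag
miR-138-5p: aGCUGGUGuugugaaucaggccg
miR-138-1-3p: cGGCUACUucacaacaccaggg
miR-138-2-3p: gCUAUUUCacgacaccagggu
miR-129-5p: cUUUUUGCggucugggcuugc
miR-129-2-3p: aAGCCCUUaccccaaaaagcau

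The 5p forms of miR-138 and miR-129 each occurred in 2 hairpins, while both forms of miR-137 and the 3p forms occurred in 1. The 3p forms of the Mir138 copies differed at 2 of 20 aligned bases, C7U and A13G, counted from the 5′ end of miR-138-1-3p with its base first. Their starts differ by 2 bases as well, so the copies share the seed of their 5p arm and have different seeds on their 3p arm. None of the 7 seeds occurred in another of the 1679 mature names that RefSeq lists for mouse. For Mir129-1 the table lists 1 mature form, miR-129-5p. The stretch of the Mir129-1 hairpin opposite that arm matched miR-129-2-3p at 21 of 22 bases, with the single difference C20U, counted from the 5′ end of miR-129-2-3p with its base first. This difference lies outside the seed. The seed of miR-129-2-3p therefore occurs in the Mir129-1 hairpin too, in a stretch without a listed name.

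The hairpins of each pair are shown to place the shared stretches, given in capitals where the copies are identical over at least 18 bases.
Mir138-1: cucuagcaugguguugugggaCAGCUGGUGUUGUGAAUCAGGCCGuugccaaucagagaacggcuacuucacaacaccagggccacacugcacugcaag
Mir138-2: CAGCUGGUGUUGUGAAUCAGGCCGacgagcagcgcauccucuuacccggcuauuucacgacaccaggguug
Mir129-1: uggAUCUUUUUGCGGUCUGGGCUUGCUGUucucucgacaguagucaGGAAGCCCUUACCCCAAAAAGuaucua
Mir129-2: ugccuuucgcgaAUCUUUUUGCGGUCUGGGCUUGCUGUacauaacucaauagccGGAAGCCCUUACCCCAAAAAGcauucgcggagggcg

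The Mir138 copies shared 24 bases around miR-138-5p, and the Mir129 copies shared 26 bases around miR-129-5p and 21 bases on the opposite arm. A read of exactly miR-138-5p or miR-129-5p therefore matches both copies, and the tables keep reads that matched several positions in a row of their own. Of the 22-base windows in each hairpin, 3 of 78 in Mir138-1, 3 of 50 in Mir138-2, 5 of 52 in Mir129-1 and 5 of 69 in Mir129-2 also occurred in a microRNA hairpin elsewhere. None of the 52 windows of Mir137 did. The 21 bases shared on the opposite arm of the Mir129 copies are shorter than a window and so were not counted. A read that lies within them matches both copies as well. A genome sequence was not used here, so matches outside microRNA hairpins were not counted.

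**Figure D1:**
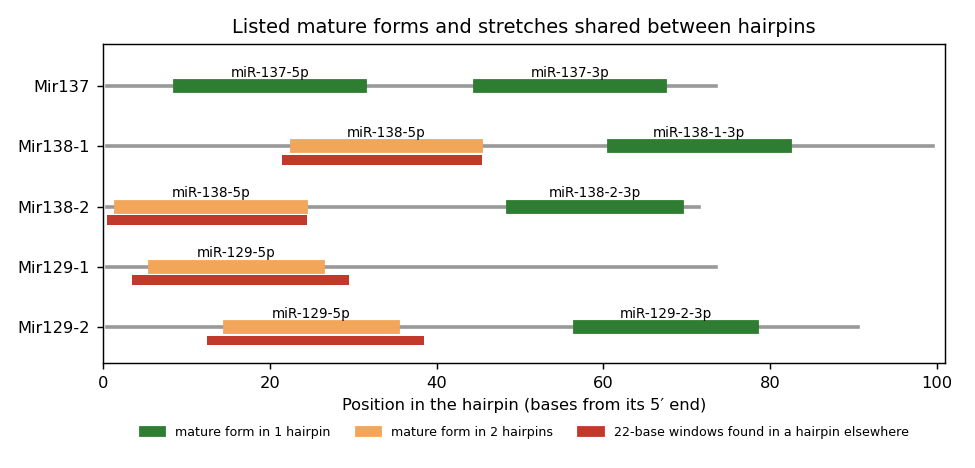
Map of the 5 hairpins, one per row, with position in bases from the 5′ end on the x axis; boxes on the line are mature forms listed by RefSeq, and bars under it cover 22-base windows found in a microRNA hairpin at another position. The bars cover miR-138-5p and miR-129-5p in both copies, and Mir137 has none. They leave out the 21 bases shared on the opposite arm of the Mir129 copies, which are shorter than a window.

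Each hairpin lies inside a longer annotated RNA on the same strand (mm10 coordinates). Mir137 (ENSMUSG00000065569.2, chr3:118433857-118433929, plus strand) lies in an exon of the processed transcript Gm26871. Mir138-1 (ENSMUSG00000065414.1, chr9:122682876-122682974, plus strand) lies in an exon of Gm47135, annotated as a transcribed pseudogene. Mir138-2 (ENSMUSG00000065512.3, chr8:94324311-94324381, plus strand) lies in an exon of the lincRNA C78859. Mir129-1 (ENSMUSG00000065469.1, chr6:29022619-29022691, plus strand) lies in an exon of the lincRNA Gm3294, and Mir129-2 (ENSMUSG00000065511.1, chr2:94241364-94241453, minus strand) in an intron of the lincRNA Mir670hg. Mir129-2 is the one member with a microRNA gene, Mir129b, on the opposite strand.

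The libraries held 4111167 counts in microRNA genes in replicate 1 and 3189903 in replicate 2. Levels are counts scaled to these totals (CPM); they were not divided by hairpin length, since a small RNA read covers a mature form and not the whole hairpin. Reads that matched several positions made up 39.1% and 41.4% of all reads. Among 9 genes listed as neuron markers, 5 were detected, and the list held 3.56% ± 0.651 of the counts (SD, n = 2). The undetected genes were the 3 Mir124a copies and Mir9-2. Markers of other brain cells held 1.18% ± 0.193 (endothelial), 0.270% ± 0.0235 (oligodendrocyte) and 0.191% ± 0.00957 (microglia and leukocyte), with every listed gene detected. The liver marker Mir122 held 0.00499% ± 0.000272, and markers from Hox clusters (hindbrain and spinal cord) 0.00302% and 0.00583% in the libraries, with Mir196a-1 and Mir196a-2 at 0 counts. The muscle list held 0.00223% ± 0.000223, with Mir1a-1, Mir1a-2, Mir133a-1 and Mir133a-2 at 0 counts. All of this share came from Mir206 (85 and 76 counts), which is also on the list of synaptic microRNAs used below. The 5 hairpin genes were each between 0.0327% and 0.985% of the counts on average.

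Mir137 was the most abundant of the genes, followed by Mir138-1, Mir138-2, Mir129-2 and Mir129-1. Together they held 1.79% ± 0.104 of the counts (SD, n = 2), which was 1.87% in replicate 1 (1.86 to 1.88%, 95% interval by the exact Clopper-Pearson method) and 1.72% in replicate 2 (1.71 to 1.74%). Intervals cover counting error only and take each read as an independent draw. The reads carry no molecular identifiers and several can stem from 1 molecule, so the intervals can be too narrow.

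Mir137 had 43118 counts in replicate 1 and 29359 in replicate 2, or 10488 and 9204 CPM, and averaged 9846 ± 908 CPM (SD, n = 2). Mir138-1 had 19078 and 15864 counts, or 4641 and 4973 CPM, and averaged 4807 ± 235 CPM. Mir138-2 had 8385 and 5957 counts, or 2040 and 1867 CPM, and averaged 1954 ± 122 CPM. For these 3 genes the libraries lay close together, and the lower value of each gene was above the higher value of the next.

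Mir129-2 had 5050 counts in replicate 1 and 2564 in replicate 2, or 1228 and 804 CPM, and averaged 1016 ± 300.2 CPM. Mir129-1 had 1177 and 1173 counts, or 286 and 368 CPM, and averaged 327 ± 57.6 CPM. The ranges of the Mir129 copies did not overlap each other, and neither overlapped Mir138-2, so the order of all 5 genes was the same in both libraries. An exact sign-flip test over 2 libraries cannot give a two-sided p under 0.5, so the order is given without a test.

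**Figure D2:**
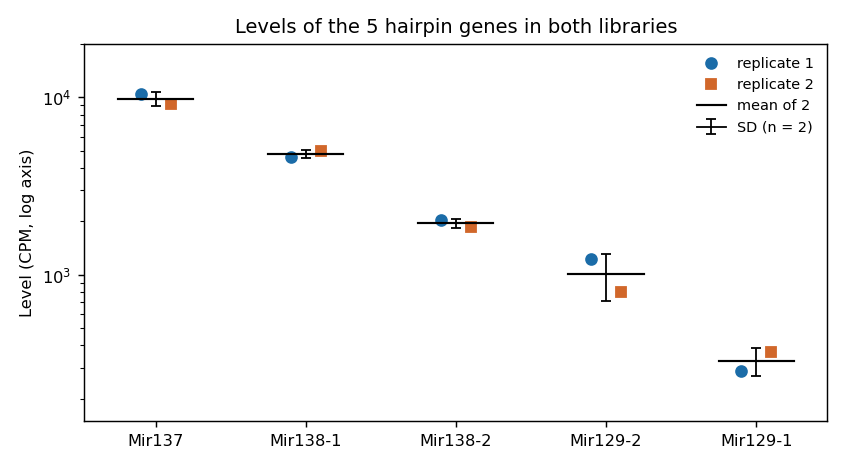
Level of each gene in CPM on a log axis, with points for the libraries, a line for the mean and bars for the SD of 2. Levels step down from 9846 CPM for Mir137 to 327 CPM for Mir129-1, and the points of neighbouring genes do not overlap.

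Summed over copies, the order was Mir137, Mir138 and Mir129. Mir137 made up 54.8% ± 1.89 of the counts of the 5 genes, Mir138 37.7% ± 2.81 and Mir129 7.46% ± 0.921 (SD, n = 2). The Mir138 sum was 6680 and 6841 CPM, and the Mir129 sum 1515 and 1172 CPM. Mir137 was 1.46 ± 0.159 times the Mir138 sum and 7.39 ± 0.659 times the Mir129 sum, and the Mir138 sum was 5.12 ± 1.01 times the Mir129 sum. Both sums can be too low by the reads of the shared 5p forms. The Mir129 sum can also miss short reads within the 21 bases shared on the opposite arm. Mir137, with no shared form, cannot lose reads of a listed form to another microRNA hairpin. The ratios are therefore of counted reads.

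Among all 2202 genes Mir137 ranked 24, Mir138-1 ranked 38, Mir138-2 ranked 77, Mir129-2 ranked 105 and Mir129-1 ranked 159 by mean level. The gene with the highest level, Mir139, stood 9.38 times above Mir137 and 282 times above Mir129-1. The median log2(CPM + 1) was 10.93 over the 5 genes, against 6.97 over the 406 detected genes and 0.00 over all 2202, most of which had few or no counts. All 5 levels were above the median detected level of 129 CPM.

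The genes closest in level over the 2 libraries were found by Euclidean distance of log2(CPM + 1); with 2 libraries of 1 condition this is likeness of level only. For Mir137 these were Mir324 (9122 and 8747 CPM, distance 0.21) and Mir330 (9662 and 7972 CPM, distance 0.24). For Mir138-1 they were Mir143 (4840 and 5016 CPM, distance 0.06) and Mir98 (4489 and 4450 CPM, distance 0.17). These 4 neighbours did not all differ from the member beyond its spread: Mir330 had a range that overlapped that of Mir137, and Mir143 one that overlapped that of Mir138-1. For Mir138-2 the closest were Mir598 (2046 and 1987 CPM) and Mir17 (2044 and 1992 CPM), for Mir129-2 Mir497 (1115 and 872 CPM) and Mir381 (1189 and 914 CPM), and for Mir129-1 Mir496a (298 and 366 CPM) and Mir1298 (278 and 346 CPM). Each of these 6 overlapped its member in range.

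**Figure D3:**
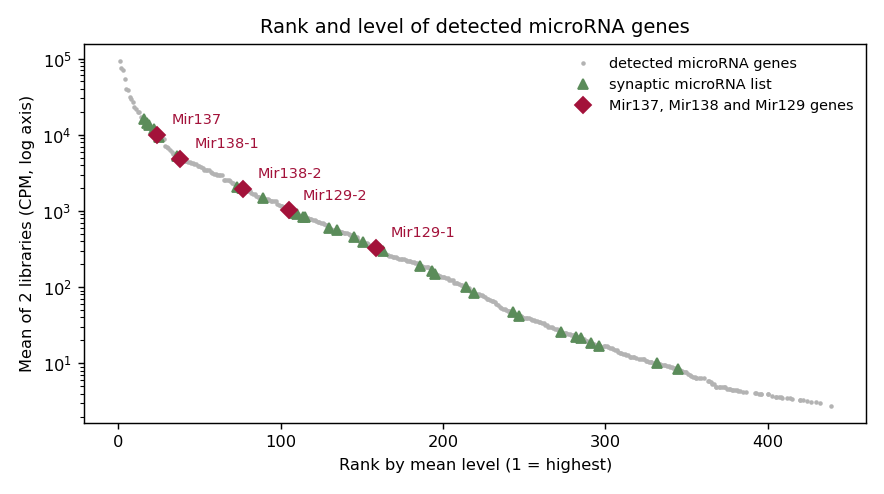
Mean level in CPM on a log axis against rank for the 406 detected genes, with diamonds for the 5 genes and triangles for the detected part of a list of other synaptic microRNAs. The diamonds run from rank 24 to rank 159, in the upper part of the curve.

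Both pairs of copies gave unequal counts. Mir138-1 held 69.5% of the Mir138 counts in replicate 1 (68.9 to 70.0%, exact 95% interval) and 72.7% in the replicate 2 library (72.1 to 73.3%), or 71.1% ± 2.29 (SD, n = 2). It stood 2.28 times above Mir138-2 in replicate 1 and 2.66 times in replicate 2. Mir129-2 held 81.1% of the Mir129 counts in replicate 1 (80.1 to 82.1%) and 68.6% in replicate 2 (67.1 to 70.1%), or 74.9% ± 8.83. It stood 4.29 times above Mir129-1 in replicate 1 and 2.19 times in replicate 2.

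The higher copy was thus the same in both libraries for each pair, while the size of the difference varied more for Mir129. The intervals of the 2 libraries were apart for both pairs. They were apart for 11 of the 21 pairs of microRNA genes numbered 1 and 2 with at least 50 counts in each library, or 52.4%, so intervals that do not meet were common among pairs. The share at the higher copy moved by 3.23 percentage points for Mir138 and 12.5 for Mir129, against a median of 4.06 over the other 19 pairs. In those pairs the higher copy held a median of 80.0% of the counts, and Mir138 and Mir129 ranked 6 and 9 of 21 from the most even.

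**Figure D4:**
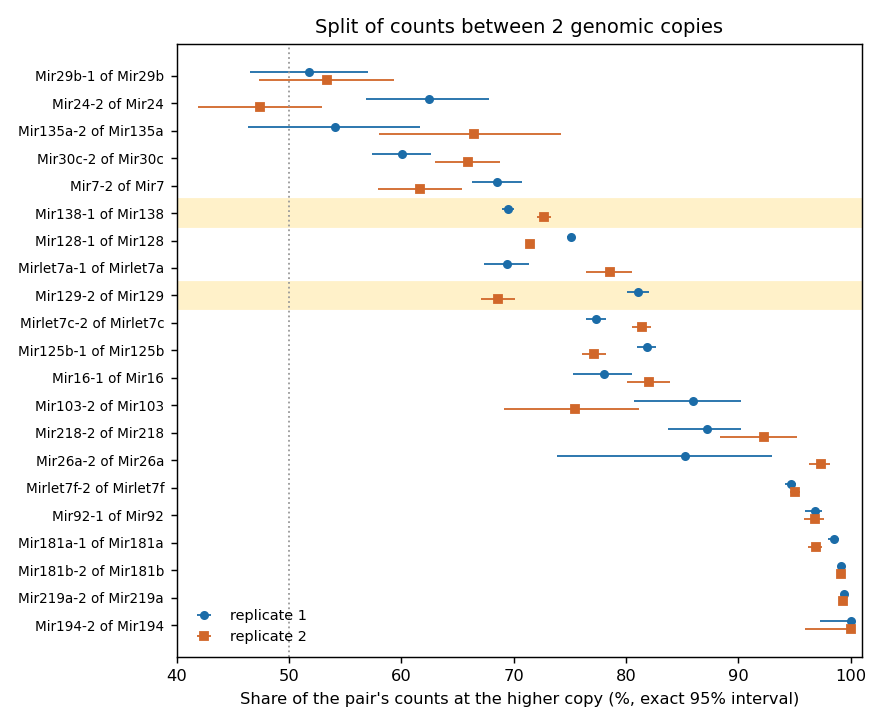
Share of a pair's counts at its higher copy, in percent, for 21 pairs of microRNA genes, with points for the libraries and bars for exact 95% intervals; shading marks Mir138 and Mir129, and the dotted line marks an even split. Mir138-1 sits at 69.5% and 72.7%, and Mir129-2 at 81.1% and 68.6%, in the middle of the pairs.

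The split rests on the reads that could be told apart. For Mir129-1 the only mature form listed, miR-129-5p, is shared, and the gene had 1177 and 1173 counts. The unnamed stretch opposite that arm differs from miR-129-2-3p (C20U). A read that covers this base can therefore be told apart from Mir129-2. A read identical to miR-129-5p matches Mir129-2 too; the arm from which the counted reads came is not recorded in the tables. Of 1018 genes whose RefSeq mature forms could be placed in their GENCODE hairpin, 53 had every listed form in another hairpin as well, and 6 of these (11.3%) were detected. Mir129-1 ranked 4 among them, below Mirlet7c-2 at 1853 CPM. This class rests on listed forms only: Mir129-1 had 1 and Mirlet7c-2 had 2, so the unnamed stretch of Mir129-1 did not enter. Mir138-1, Mir138-2 and Mir129-2 belong to the 61 genes with some forms shared, of which 39 (63.9%) were detected, and ranked 3, 6 and 8 there. Mir137 belongs to the 904 genes with none shared, of which 322 (35.6%) were detected, and ranked 23.

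The counts of Mir129-2 depended on keeping the strand. Of its counts, 5032 in replicate 1 and 2551 in replicate 2 lay on the strand opposite to Mir129b within that gene's bounds. Mir129b itself had 4 counts in replicate 1 and 1 in replicate 2. When strand was ignored, Mir129-2 was left with 18 and 13 counts, because reads in both genes were then ambiguous, and its share of the Mir129 counts was 1.30% ± 0.290 (SD, n = 2), which turns the order of the copies. The other 4 genes kept every count, with 0 on the opposite strand. Gm24155, annotated as a microRNA gene 792 bases from Mir137, had 2 and 1 counts.

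Between the libraries, copies of the same microRNA went in opposite directions. Mir137, Mir138-2 and Mir129-2 were higher in replicate 1, while Mir138-1 and Mir129-1 were higher in replicate 2. All 5 passed a two-sided exact binomial test of each gene's split of counts against the library totals (Benjamini-Hochberg over 406 detected genes, adjusted p under 0.05). This test compares 2 libraries by read sampling only and no conditions. It called 58.1% of the detected genes. Those higher in replicate 1 were 34.7% of the detected genes (141) and those higher in replicate 2 were 23.4% (95), against 108 and 112 genes with DESeq2 size factors. The test calls small differences where counts are high, so passing it sets the members little apart.

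Mir129-2 had the largest difference of the 5, with a log2 ratio of replicate 1 over replicate 2 of 0.61 (adjusted p = 3.20e-70, exact binomial test). Mir129-1 had a log2 ratio of -0.36 (adjusted p = 4.18e-09, exact binomial test). Mir137 stood at 0.19 (adjusted p = 2.19e-66, exact binomial test), a difference of 1.14-fold. The Mir138 copies stood at -0.10 for Mir138-1 (adjusted p = 4.03e-10, exact binomial test) and 0.13 for Mir138-2 (adjusted p = 5.05e-07, exact binomial test).

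All 5 genes lay within 2-fold between the libraries, as did 366 of the 406 detected genes. Their median absolute log2 ratio was 0.19, against 0.30 over the detected genes. With the totals over genes, Mir129-2 differed more between the libraries than 73.6% of the detected genes, Mir129-1 more than 56.2% and Mir138-1 more than 16.3%. With library sizes from TMM or DESeq2, Mir138-2 no longer passed (adjusted p = 0.0873 and 0.112, exact binomial test), and the signs of all 5 stayed. The order of the smaller differences depended on this choice: the log2 ratio of Mir138-1 became -0.18 with both, that of Mir137 0.11 with both, and that of Mir138-2 0.05 with TMM and 0.04 with DESeq2. Mir129-2 stood at 0.53 and Mir129-1 at -0.44 with both. With strand ignored, Mir129-2 did not pass either (adjusted p = 1, exact binomial test), at its 18 and 13 counts.

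**Figure D5:**
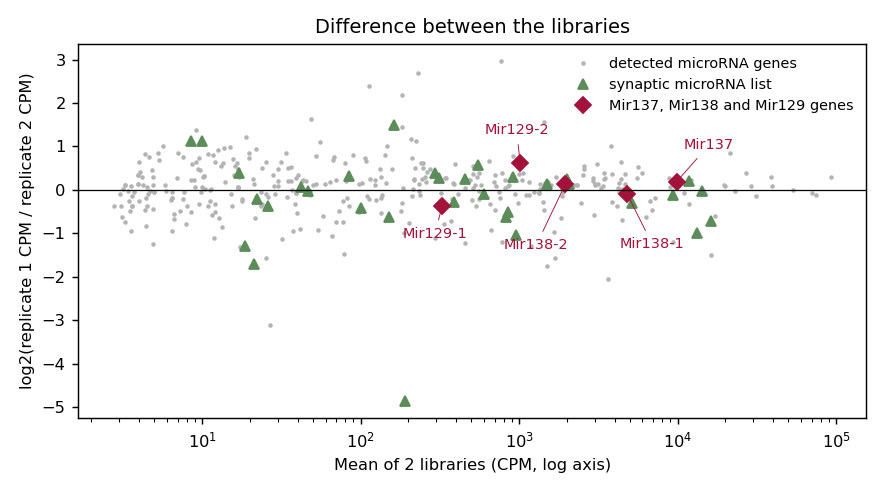
The log2 ratio of replicate 1 over replicate 2 against mean CPM on a log axis for the 406 detected genes, with diamonds for the 5 genes and triangles for the list of other synaptic microRNAs. The 5 genes lie between -0.36 (Mir129-1) and 0.61 (Mir129-2), all within 2-fold.

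A list of 40 other microRNA genes with published roles at synapses sets these levels in context. Of these, 38 were found by symbol and 33 were detected, while Mir92a-1 and Mir92a-2 were not found under these symbols. Genes under the symbols Mir92-1 (2124 and 1592 counts) and Mir92-2 (71 and 53 counts) passed the count minimum but were not matched to the list. The values for the list leave them out, although Mir92-1 had more counts than Mir129-1 in both libraries. The 5 genes had a median log2(CPM + 1) of 10.93, against 7.70 over the 38 and 8.59 over the 33 detected. Genes on both sides, such as Mir138-1 and Mir181a-2, have listed forms shared with another hairpin. Reads of those forms can lie outside the counts, so these medians are of counted reads and the effect on the gap was not tested. By mean of both libraries, levels above Mir137 were found for 4 of the 38, above Mir138-1 for 6, above Mir138-2 for 8, above Mir129-2 for 9 and above Mir129-1 for 17. The most abundant were Mir132, induced by neuronal activity (12230 and 20125 CPM), Mir128-1 (14046 and 14259 CPM), Mir22 (8889 and 17616 CPM) and Mir125a (12559 and 10898 CPM). Mir22, which was below Mir137 in replicate 1, and Mir191 (8965 and 9705 CPM) overlapped Mir137 in range. Mir128-2, whose copy Mir128-1 is also on the list, had 4662 and 5707 CPM and overlapped Mir138-1.

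Of the 33 detected genes of this list, 13 were higher in replicate 1 and 15 higher in replicate 2 by the same exact binomial test, and 5 did not pass. Over all 406 detected genes, 34.7% were higher in replicate 1 and 23.4% in replicate 2. The share called depends on depth: it was 74.6% among genes with at least 50 counts in each library. Their median absolute log2 ratio was 0.37, against 0.19 for the 5 genes and 0.30 for the detected genes. The 5 undetected genes were Mir26a-1, Mir9-2 and the 3 Mir124a copies, which had between 1 and 32 counts per library. Mir124a and Mir9 are abundant microRNAs of neurons with several genomic copies. Their low counts stood beside the large share of reads that matched several positions, and the part of those reads in the result was not tested.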

How the data were processed

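Small RNA was sequenced in 2 libraries of 1 group. The deposited tables hold raw read counts per microRNA gene, 3 per gene (strand ignored, strand of the gene, opposite strand), after 4 rows for reads in no gene; the authors applied no normalization to them. Per the file headers and the descriptions beside them, the assembly is mm10 and the annotation M21; the aligner and counter were not given in the sources used here. Reads in no gene row (unmapped, several positions, no gene) were left out of the totals: they were 19.1%, 39.1% and 5.13% of 11224232 reads in replicate 1, and 17.5%, 41.4% and 4.66% of 8758378 in replicate 2.

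CPM, ranks, copy shares and exact Clopper-Pearson 95% intervals were computed from the strand of the gene. Precision follows from these depths: 3 counts, the limit that a count of 0 allows, came to 0.730 CPM in the first library and 0.940 CPM in the second. Each detected gene (at least 10 counts in each library) was tested for its split between the libraries by an exact binomial test (two-sided). The p-values were adjusted by Benjamini-Hochberg over all detected genes and called under 0.05. The procedure was tested on simulated counts with set changes and read sampling as the only spread. That check says nothing about further spread between libraries. Sequences came from RefSeq (GRCm38.p6), placed in the hairpins of GENCODE M21.

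Named genes were the 5 members, the 2 detected genes nearest in level to each, the 6 leading genes of the synaptic list, overlapping genes or microRNA genes within 10 kb, and the leading gene. Named in addition, after their values were seen, were undetected or absent genes of the lists, Mir206, Mir92-1, Mir92-2 and Mirlet7c-2. The members and lists were chosen with earlier results of these data known. The pairs of copies and the classes of shared forms were added after the data were seen. Alternatives were strand ignored, other library totals, TMM (edgeR 4.0.16) and DESeq2 (1.42.0) library sizes, other count minimums, an adjusted p under 0.01 and each replicate left out. Python 3.11.15, scipy 1.17.1 and R 4.3.3 were used.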

Additional observations from a re-analysis of the deposited data

Results flagged for a closer look

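Reads that matched several genomic positions lie outside the counts used, at 39.1% of all reads in replicate 1 and 41.4% in replicate 2. Such reads can hold reads of miR-138-5p and miR-129-5p, each of which occurs in 2 hairpins. They can also hold short reads within the 21 bases that the Mir129 copies share on the opposite arm. How many of them do was not analysed here. On the strand opposite to Mir129-2 there were 4 counts in replicate 1, above the 3 counts that a count of 0 allows, and 1 in replicate 2. These are the counts of Mir129b.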

How the results depend on the processing

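No paired analysis was possible because there was 1 group. The share of counts in the 5 genes was 0.656% of all reads in the files, in place of 1.79% of the counts in genes, and 1.98% with Mir139 left out of the total; both moves follow from the total used. With strand ignored the Mir129-2 share of the Mir129 counts was 1.30%, in place of 74.9%, because Mir129b overlaps it. Among 27 alternative values of the main results these 3 moved and 24 did not, including all values with a replicate left out, which for shares and levels cannot move by more than their SD with 2 libraries and so say nothing about stability. All 5 genes were detected under each count minimum tried. The count of genes that differed between the libraries stayed between 211 and 251. Both TMM and DESeq2 scale replicate 1 down and replicate 2 up, so mean levels over the libraries barely move by construction. The SD of Mir138-1 became 422 CPM with TMM, in place of 235, and that of Mir138-2 45.7 CPM, in place of 122. Depth does not limit the detection of these genes. How many reads of the Mir138 and Mir129 genes matched several positions was not analysed here.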
